A study of Homo sapiens with 12 samples.

Results

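The S100 genes S100A4, S100A6, S100A8, S100A9, S100A10, S100A11 and S100A13 were followed across 12 libraries of the human acute myeloid leukaemia line OCI-AML3. They were chosen by symbol, as 7 of the 21 protein-coding S100 genes in a table of 57905 identifiers, and all 7 passed the filter on low counts. Their identifiers are ENSG00000196154 (S100A4), ENSG00000197956 (S100A6), ENSG00000143546 (S100A8), ENSG00000163220 (S100A9), ENSG00000197747 (S100A10), ENSG00000163191 (S100A11) and ENSG00000189171 (S100A13). The study asked how the cells' transcripts change after treatment with SA and after knockout of ALAS1, the first enzyme of heme synthesis.

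The drug arm held 3 libraries of cells given vehicle and 3 of cells given SA at 500 µM, both for 6 days. The guide arm held 3 libraries of cells with a scrambled guide (sgSCR) and 3 with a guide against ALAS1 (sgALAS1), and doxycycline was given to both groups for 7 days to switch the guide on. The labels do not expand SA, do not name the vehicle and do not say whether the guide cells are a clone or a pool. They also do not say whether replicates came from separate cultures, so the spread behind each p-value is that of these libraries alone, and it may be technical. Because guide, doxycycline and days differ together between sgSCR and vehicle, these cannot be told apart in any comparison across arms.

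S100 proteins are small calcium sensors with a pair of EF-hand loops, and most of them work as dimers. When calcium binds, the dimer opens a surface that grips a target such as an annexin, a myosin chain or an enzyme subunit. S100A8 and S100A9 pair with each other to form calprotectin, which is abundant in neutrophils and monocytes, withholds zinc and manganese from microbes and is released as an inflammatory signal. In myeloid leukaemia their transcripts are widely used as signs of monocytic or granulocytic maturation.

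The promoter windows of S100A8 and S100A9, the members with the largest increases among the 7, are printed below as the bases that precede the annotated start. RefSeq (GRCh38.p14) gave 3 starts for S100A8 and the farthest upstream is used first, at chr1:153391189-153391438 on the minus strand. The window of S100A9 is at chr1:153357604-153357853 on the plus strand. Both are 250 bases long and are written 5′ to 3′ on the transcribed strand, with motif matches in capitals.
S100A8: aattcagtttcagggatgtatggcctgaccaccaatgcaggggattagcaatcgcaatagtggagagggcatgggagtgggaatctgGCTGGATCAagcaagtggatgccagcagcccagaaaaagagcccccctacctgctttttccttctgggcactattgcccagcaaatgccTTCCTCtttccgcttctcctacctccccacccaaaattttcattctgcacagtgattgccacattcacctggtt
S100A9: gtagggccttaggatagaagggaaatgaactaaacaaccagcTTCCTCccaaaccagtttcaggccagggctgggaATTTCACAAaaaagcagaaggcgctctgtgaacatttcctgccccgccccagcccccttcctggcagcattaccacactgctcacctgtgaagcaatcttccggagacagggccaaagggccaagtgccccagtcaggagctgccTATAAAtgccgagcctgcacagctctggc

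The motifs searched on both strands were TTGCNNAAT and TTNNGNAAT for C/EBP factors, GAGGAA for PU.1, TGANTCA for AP-1, TTCNNNGAA for STAT factors, ACGTG for HIF, and TGANNNNGC for NRF2 and BACH1. TTGCNNAAT and TTNNGNAAT can match the same bases, as can TGANTCA and TGANNNNGC. In S100A8 the capitals mark a TGANNNNGC match on the opposite strand (163 to 155 bases before the start) and a GAGGAA match on the opposite strand (74 to 69 bases before). In S100A9 they mark GAGGAA on the opposite strand (208 to 203 bases before), TTNNGNAAT on the opposite strand (174 to 166 bases before) and TATAAA (29 to 24 bases before). The motifs are common. Of 35116 windows of this length, 23.6% held GAGGAA, 9.85% TTNNGNAAT, 35.2% TGANNNNGC, 2.39% TTGCNNAAT, 6.57% TGANTCA, 6.57% TTCNNNGAA and 18.5% ACGTG. The single window of S100A12, the calgranulin gene that lies between S100A9 and S100A8, matched TTGCNNAAT (95 to 87 bases before the start) and TGANTCA (57 to 51 bases before). The windows of S100A6 and S100A10 held none of these letters, which says nothing about the factors.

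TATAAA, the letters of a TATA box, was added to the search after the windows had been seen and was looked for on the transcribed strand only, where 6.80% of all windows held it. It lay 29 to 24 bases before the second start of S100A8 and at the same distance before the start of S100A9. The same distance separated it from the second start of S100A13, a member that passed the test in no comparison. Before the start of S100A4 it lay 31 to 26 bases away. Other distances were 8 to 3 bases before the start of S100A12 and 126 to 121 bases before the third start of S100A8. The stretches from 40 to 11 bases before the starts of S100A8, S100A9 and S100A4, whose levels changed most, at chr1:153391084-153391113 (minus), chr1:153357814-153357843 (plus) and chr1:153545817-153545846 (minus), are shown with TATAAA in capitals to let the spacing be compared.
S100A8 second start: agcctaaccgcTATAAAaaggagctgcctc
S100A9 start: caggagctgccTATAAAtgccgagcctgca
S100A4 start: tggctggggTATAAAtaggtcagacctctg
A match is a description of the reference letters. The data hold no measure of binding.

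Library totals ran from 4658513 to 7339843 reads (median 5573540), and correlations of log2 CPM within groups from 0.959 to 0.971. With SA, ALAS1 rose from 31.1 to 37.5 CPM in vehicle to 102 to 111 CPM (log2 change 1.60, edgeR adjusted p = 1.36e-09). In the guide arm it lay at 26.2 to 27.3 CPM in sgALAS1 against 37.4 to 41.9 in sgSCR (log2 change -0.56, edgeR adjusted p = 0.00777). Without sgSCR replicate 2 the call was lost (-0.51, adjusted p = 0.0503, the highest with a library left out). Over all alternatives, which include a test against a 1.5-fold change, the highest adjusted p was 0.999998. The difference between arms in ALAS1 was -2.16 (edgeR adjusted p = 1.14e-08). The labels do not give the site of the guide, so 3′ reads do not check the knockout itself. Summed levels of 12 myeloid leukaemia markers were 2545 to 2757 CPM in vehicle, 2547 to 2760 in SA, 2597 to 2700.5 in sgSCR and 2743 to 2806 in sgALAS1, with KIT at 0 throughout. Summed erythroid and megakaryocyte markers stayed between 4.74 and 14.4 CPM, with the globin genes HBA1, HBA2 and HBB at 0, and epithelial and stromal markers between 1.20 and 9.91 CPM. Lymphoid markers summed to 117 to 138 CPM in vehicle, 147 to 173 in SA, 93.2 to 99.9 in sgSCR and 169 to 181 in sgALAS1, with CD3E, CD2 and LCK at 0 throughout. Most of each lymphoid sum was NCAM1, at 92.0 to 114 CPM in vehicle, 96.4 to 119 in SA, 78.3 to 86.3 in sgSCR and 130 to 138 in sgALAS1. NCAM1 rose in sgALAS1 (log2 change 0.68, edgeR adjusted p = 2.53e-04) and was uncalled with SA (0.13, adjusted p = 0.574). Within that list IL7R rose (log2 change 2.29 with SA and 2.25 in sgALAS1), while CD3D fell by 4.06 on the log2 scale with SA and went from 86 reads in sgSCR to 0 in sgALAS1, at least 27.3-fold lower against a floor of 3 reads over the group. The part of these markers in the results was not tested.

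After SA, 4 of the 7 genes were higher and 1 was lower. After the ALAS1 guide, 5 were higher and 1 was lower. S100A8 and S100A9 rose most, from group means of 5.98 to 9.96 CPM in the controls to means of 35.5 to 99.0 CPM in the treated groups, S100A6 and S100A11 rose less than 2-fold, and S100A4 fell in both arms. In the background, edgeR's quasi-likelihood test with Benjamini-Hochberg adjustment called 11.1% of 13832 genes for SA (4.83% higher, 6.24% lower) and 11.7% for sgALAS1 (4.88% higher, 6.85% lower). The treated and control libraries did not overlap for 6 of the 7 genes in each arm, against 27.4% and 29.1% of all tested genes. The median log2 change of the 7 was 0.71 for SA and 0.58 for sgALAS1, against -0.01 and -0.003 over all tested genes. The 7 were chosen with earlier results of these data known, so these contrasts with all tested genes are a description. S100P, outside the 7, also passed the filter. Its treated and control libraries overlapped in both arms, and it was called in neither. In bulk RNA, a change in the share of cells of a type and a change in RNA per cell cannot be told apart.

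**Figure D1:**
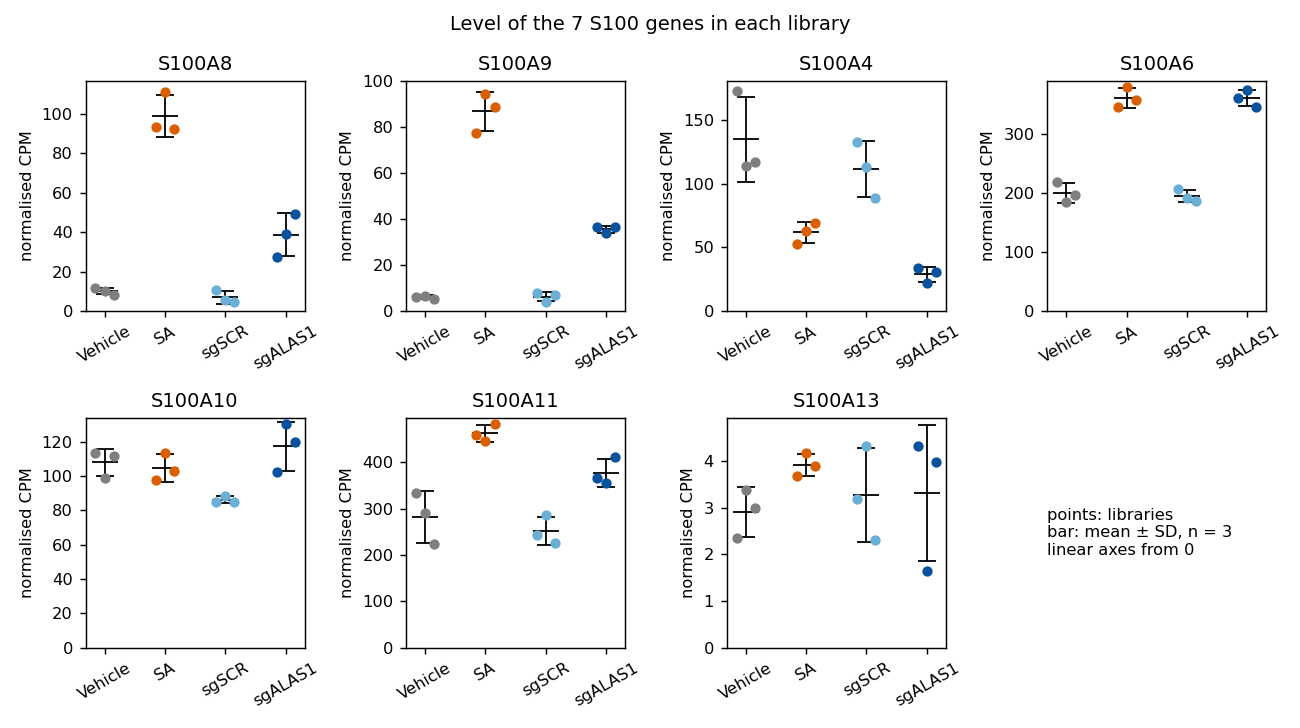
Normalised CPM of each S100 gene (y axis, linear from 0, one panel per gene) in the 4 groups (x axis), with a point per library and the mean ± SD of 3 libraries. The treated libraries of S100A8, S100A9, S100A6 and S100A11 lie above their controls in both arms and those of S100A4 below.

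S100A8, the smaller calprotectin subunit, stood at 11.6, 9.99 and 8.32 CPM in the vehicle libraries and at 93.3, 111 and 92.4 CPM with SA. It stood at 10.8, 5.63 and 4.46 CPM in sgSCR and at 27.6, 39.1 and 49.4 CPM in sgALAS1. Every treated library was above every control library of its arm, and the SA libraries were above the sgALAS1 libraries. The log2 change was 3.30 with SA (SE 0.23, edgeR adjusted p = 1.68e-11), a 9.85-fold rise, and 2.49 in sgALAS1 (SE 0.24, adjusted p = 6.17e-09), a 5.63-fold rise. These values rest on 47 to 84 reads per vehicle library, 480 to 570 with SA, 27 to 54 in sgSCR and 179 to 223 in sgALAS1; PCR copies of a molecule are not removed from such counts.

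S100A9, the partner subunit and the carrier of the longer tail of calprotectin, stood at 6.21, 6.60 and 5.13 CPM in vehicle and at 77.5, 94.3 and 89.0 CPM with SA. It stood at 7.97, 3.86 and 6.94 CPM in sgSCR and at 36.4, 33.8 and 36.3 CPM in sgALAS1. The groups did not overlap in either arm, and the 3 sgALAS1 libraries lay within 3 CPM of each other. The log2 change was 3.85 with SA (SE 0.20, edgeR adjusted p = 7.05e-14), a 14.5-fold rise, and 2.52 in sgALAS1 (SE 0.21, adjusted p = 2.11e-10), a 5.73-fold rise.

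The rise of S100A9 was smaller in the guide arm. The change in sgALAS1 minus the change with SA was -1.33 on the log2 scale (SE 0.30, 95% interval -1.94 to -0.73, edgeR adjusted p = 0.0127), where 1.19% of all genes were called and 0.759% were called lower. The call was lost with limma-voom (adjusted p = 0.122), in a test against a 1.5-fold change (0.226), without sgSCR replicate 1 (-1.14, adjusted p = 0.100006) and without sgSCR replicate 3 (-1.24, adjusted p = 0.0578), over a range of 0.00172 to 0.226 across the alternatives. For S100A8 the same difference was -0.81 (SE 0.33, interval -1.49 to -0.12) and did not pass the test (edgeR adjusted p = 0.307). S100A9 was the only member of the 7 with a called difference between arms. The 2 control groups did not differ detectably in the members. For sgSCR against vehicle, edgeR, DESeq2 and limma-voom each called 0 of 7, with 2 of 7 (S100A8 and S100A10) lower at an unadjusted p under 0.05 in edgeR and 1.43% of all genes called (0.47% higher, 0.962% lower). The sgSCR minus vehicle value was 0.04 for S100A9 (SE 0.24) and -0.56 for S100A8 (SE 0.27, edgeR adjusted p = 0.376).

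**Figure D2:**
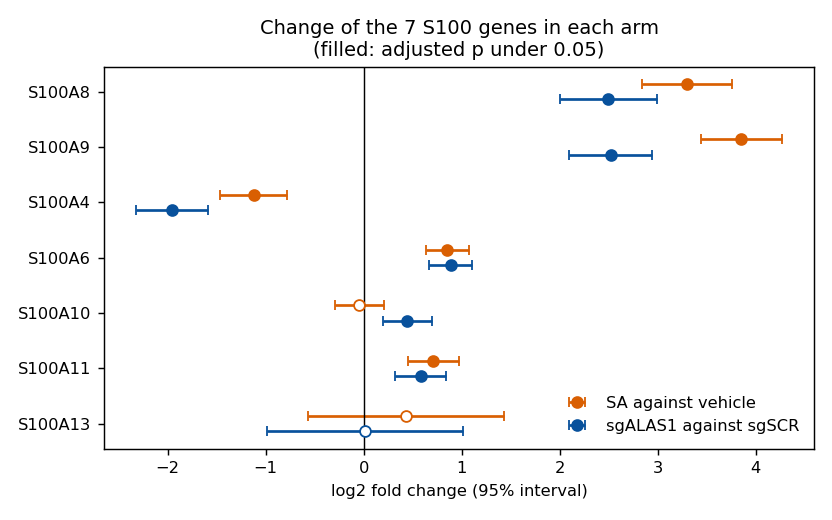
Log2 fold change of each S100 gene (x axis, with 95% interval) for SA against vehicle and for sgALAS1 against sgSCR. Filled points passed an adjusted p under 0.05, and S100A9 has 3.85 and 2.52.

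The ratio of the calprotectin subunits was followed in raw reads, where library size cancels. The log2 ratio of S100A9 to S100A8 was -0.90, -0.60 and -0.70 in vehicle and -0.27, -0.24 and -0.05 with SA. S100A8 reads outnumbered S100A9 reads in all 6 libraries, by less with SA. The mean difference was 0.54 (exact permutation test, two-sided, p = 0.1, the smallest p that 3 against 3 allows). In the guide arm the log2 ratio was -0.43, -0.54 and 0.64 in sgSCR and 0.40, -0.21 and -0.44 in sgALAS1, with overlapping libraries. The mean difference was 0.03 (exact permutation test, p = 1), and without sgSCR replicate 1, sgSCR replicate 2 or sgALAS1 replicate 1 it became -0.13, -0.19 and -0.21. The control reads of the guide arm were few, with 27 to 54 for S100A8 and 24 to 42 for S100A9.

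**Figure D3:**
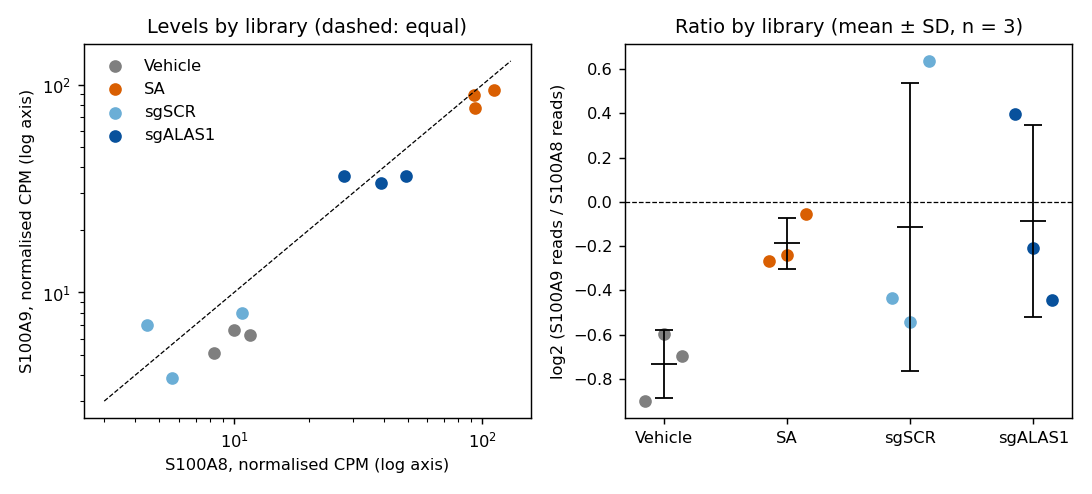
Left, S100A9 against S100A8 in normalised CPM (log axes, a point per library, dashed line of equal levels). Right, log2 ratio of S100A9 reads to S100A8 reads by group with the mean ± SD of 3 libraries, where SA lies above vehicle and the guide groups overlap.

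S100A12, a calgranulin that signals through the same receptors, did not pass the filter on low counts. It had 1, 0 and 1 reads in vehicle and 10, 7 and 8 with SA. The SA libraries each had more reads than any vehicle library. The ratio of summed levels was 14.4 (counting interval 3.59 to 125), and in a fit with no filter the log2 change was 3.60 (edgeR adjusted p = 0.241). In the guide arm there was 1 read in sgSCR and 6 in sgALAS1, a ratio of 6.29 (counting interval 0.763 to 289), so a difference was not detectable at this depth. S100A2 had 0, 2 and 0 reads in vehicle and 4, 7 and 1 with SA, with overlapping libraries (ratio 6.91, counting interval 1.54 to 63.5). In the fit with no filter its log2 change was 2.58 (edgeR adjusted p = 0.638). The intervals cover counting error only. S100A1, also below the filter, had 14, 9 and 8 reads in sgSCR and 0, 8 and 0 in sgALAS1. With no filter its log2 change there was -1.87 (edgeR adjusted p = 0.476). It had 3, 3 and 8 reads in vehicle and 3, 4 and 4 with SA. Of the other S100 genes, S100P had 285 reads and was called in neither arm (log2 change -1.12 and -0.60, edgeR adjusted p = 0.292 and 0.635), with 37, 72 and 6 reads in the vehicle libraries. S100A16 had 3 reads over all libraries and S100B 6, while S100A3, S100A5, S100A7, S100A14, S100G and S100Z had 0. The 9 S100 pseudogene rows had 0 reads, against 23541 for S100A11.

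S100A4, which binds non-muscle myosin and is tied to cell motility, fell in both arms. It stood at 173, 114 and 117 CPM in vehicle and at 52.8, 63.1 and 69.4 CPM with SA. In the guide arm it stood at 133, 113 and 88.9 CPM in sgSCR and at 33.5, 21.8 and 30.6 CPM in sgALAS1. The groups did not overlap, and the sgALAS1 libraries were the lowest of all 12. The log2 change was -1.12 with SA (SE 0.17, edgeR adjusted p = 2.51e-05) and -1.96 in sgALAS1 (SE 0.18, adjusted p = 2.03e-09). The difference between arms was -0.83 (SE 0.24, 95% interval -1.33 to -0.33, adjusted p = 0.10014) and did not pass. It passed without vehicle replicate 1 (-1.06, adjusted p = 0.00653) and without sgSCR replicate 3 (-0.97, adjusted p = 0.0459). It passed too with no filter on low counts (0.00965) and with a replicate block (0.0320). Its adjusted p ran from 0.00653 to 0.334 with single libraries left out. Over all alternatives, which include the test against a 1.5-fold change, the highest was 0.999984. S100A3, which overlaps S100A4 on the same strand, had 0 reads.

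S100A6, known as calcyclin and a partner of the ubiquitin adaptor CACYBP, stood at 218, 185 and 197 CPM in vehicle and at 345, 380 and 359 CPM with SA. It stood at 206, 192 and 187 CPM in sgSCR and at 361, 374 and 347 CPM in sgALAS1. The groups did not overlap, and the spread within groups was small. The log2 change was 0.85 with SA (SE 0.11, edgeR adjusted p = 1.77e-06) and 0.89 in sgALAS1 (SE 0.11, adjusted p = 4.63e-07). Their difference was 0.03 with an interval of -0.27 to 0.34.

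S100A11, a partner of annexin A1, was the most abundant member in all 4 groups. It stood at 334, 291 and 223 CPM in vehicle and at 458, 447 and 483 CPM with SA. In the guide arm it stood at 244, 285 and 226 CPM in sgSCR and at 366, 355 and 412 CPM in sgALAS1. Again no treated library overlapped its controls. The log2 change was 0.71 with SA (SE 0.13, edgeR adjusted p = 2.50e-04) and 0.58 in sgALAS1 (SE 0.13, adjusted p = 0.00185), with a difference of -0.13 (interval -0.49 to 0.24).

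S100A10, which lacks a working calcium loop and binds annexin A2 as a fixed complex, stood at 113, 98.8 and 112 CPM in vehicle and at 97.5, 114 and 103 CPM with SA. These groups overlapped, with a log2 change of -0.04 (SE 0.12, interval -0.29 to 0.21, edgeR adjusted p = 0.877). In sgSCR it stood at 84.9, 88.7 and 85.1 CPM and in sgALAS1 at 102, 130.5 and 119.7 CPM, without overlap. The sgSCR libraries were also below the vehicle libraries, with means of 86.2 and 108 CPM (log2 change -0.33, edgeR adjusted p = 0.219), and the sgALAS1 mean was 117 CPM. The log2 change from sgSCR to sgALAS1 was 0.44 (SE 0.12, edgeR adjusted p = 0.0154). It lost its call without sgSCR replicate 1 (adjusted p = 0.0600), sgSCR replicate 3 (0.0516) or sgALAS1 replicate 2 (0.105, the highest with a library left out). Adjusted p ran from 0.00505 to 0.999998 over all alternatives, which include the test against a 1.5-fold change. The difference between arms, 0.49 (interval 0.13 to 0.84, edgeR adjusted p = 0.214), did not pass. ANXA2, the gene of that partner, was named after its values were seen. It rose with SA (log2 change 0.54, SE 0.13, edgeR adjusted p = 0.00682) and in sgALAS1 (0.72, SE 0.13, adjusted p = 2.71e-04).

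S100A13, which takes part in the release of FGF1 without a signal peptide, was low in every group, at 2.34, 3.38 and 3.01 CPM in vehicle and 3.69, 4.18 and 3.89 CPM with SA. In sgSCR it stood at 3.19, 4.34 and 2.31 CPM and in sgALAS1 at 4.32, 1.64 and 3.99 CPM. The log2 change was 0.43 with SA (SE 0.49, interval -0.57 to 1.43) and 0.01 in sgALAS1 (SE 0.49, interval -0.99 to 1.02), so a change within these intervals was not detectable at this depth. The SA libraries were all slightly above the vehicle libraries, and the guide groups overlapped. It had 230 reads in all. It overlaps S100A1 (64 reads) on the opposite strand and AL162258.1 (56 reads) on the same strand, and since the strand setting is not given, its values are uncertain.

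A 3′ library gives 1 read per transcript end, so levels of the 7 genes can be compared as transcripts without dividing by length, as far as their ends map equally well. In vehicle the order of mean CPM was S100A11 (283), S100A6 (200.1), S100A4 (135), S100A10 (108), S100A8 (9.96), S100A9 (5.98) and S100A13 (2.91), and the libraries of neighbours did not overlap. With SA it was S100A11 (463), S100A6 (361), S100A10 (105), S100A8 (99.0), S100A9 (86.9), S100A4 (61.8) and S100A13 (3.92), where S100A10 and S100A8 overlapped, as did S100A8 and S100A9. In sgSCR S100A8 (6.95), S100A9 (6.26) and S100A13 (3.28) overlapped in turn. In sgALAS1 S100A11 (378) and S100A6 (361) overlapped, as did S100A8 (38.7) and S100A9 (35.5), while S100A4 had dropped to 28.6. S100A4 thus stood in the third place in both control groups and in the sixth place in both treated groups.

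The makeup of all S100 reads differed between the groups. S100A8 and S100A9 together took 2.06, 2.30 and 2.01% of the S100 reads in vehicle and 15.02, 16.8 and 15.1% with SA. In the guide arm they took 2.68, 1.36 and 1.88% in sgSCR and 6.85, 7.58 and 8.56% in sgALAS1. The means were 2.12 ± 0.15%, 15.7 ± 1.04%, 1.97 ± 0.67% and 7.66 ± 0.86% (SD, n = 3). S100A4 took 17.8% in vehicle against 5.19% with SA, and 16.6% in sgSCR against 2.97% in sgALAS1. S100A11 took between 37.5 and 39.1% in the group means of all 4 groups. Shares of a fixed whole move together, so a fall of S100A4 raises the others' shares.

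**Figure D4:**
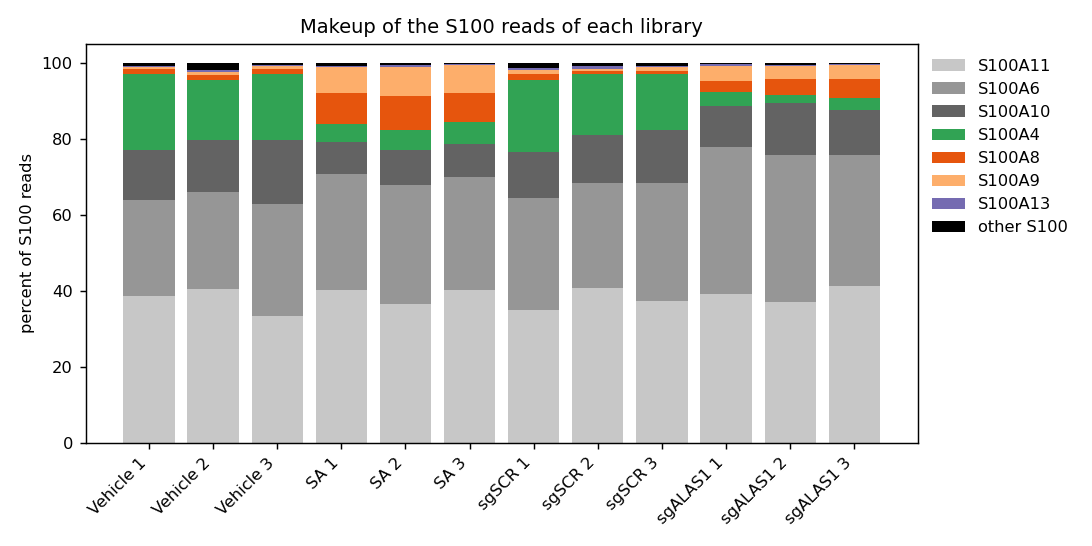
Percent of all S100 reads (y axis, bars stacked to 100) taken by each S100 gene in each of the 12 libraries (x axis). The S100A8 and S100A9 segments together reach 15.02 to 16.8% with SA and 6.85 to 8.56% in sgALAS1, against 1.36 to 2.68% in the controls.

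Across the 12 libraries the log2 levels of S100A8 and S100A9 had a Pearson r of 0.97, as a description over libraries that share their groups. S100A6 had 0.94 with S100A9 and 0.92 with S100A8, S100A11 had 0.93 with S100A8, and S100A4 had -0.82 with S100A6. Among 9406 other genes whose log2 CPM averaged at least 3, those closest to S100A9 included GNG11 (0.97), S100A8, SH3PXD2A (0.96) and FTH1 (0.96). Those closest to S100A8 included S100A9, CDKN1A (0.96), JUN (0.96) and PTPN7 (0.95). FTH1 is the heavy chain of the iron store ferritin, and CDKN1A the cell cycle inhibitor p21. The log2 change of GNG11 was 2.28 with SA and 1.84 in sgALAS1, and that of FTH1 was 0.91 and 0.87.

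Some receptors and surface partners of S100 proteins were called higher. Of 16 tested genes of 17 listed, 4 rose with SA and 5 in sgALAS1, against 4.83% and 4.88% of all tested genes. The median log2 change of the list was 0.35 and 0.38. CD14, the co-receptor that hands ligands to TLR4, rose from 16.6, 29.6 and 20.4 CPM to 68.6, 71.2 and 70.7 CPM with SA (log2 change 1.67, SE 0.18, edgeR adjusted p = 1.38e-07), and by 1.73 in sgALAS1 (SE 0.19, adjusted p = 4.91e-08). CD36, a scavenger receptor, rose by 1.36 in sgALAS1 (SE 0.18, edgeR adjusted p = 1.91e-06) and by 0.56 with SA (SE 0.17, adjusted p = 0.0268). Leaving out SA replicate 3, SA replicate 2, vehicle replicate 3 or vehicle replicate 1 ended the SA call of CD36. Its control levels differed, with a mean of 15.2 CPM in sgSCR against 33.6 in vehicle (log2 change -1.14, edgeR adjusted p = 3.32e-04), and the sgALAS1 mean was 38.9 CPM. The counts were small and turned on single libraries, with 2 called for SA without SA replicate 3, 2 for sgALAS1 without sgSCR replicate 1 or sgALAS1 replicate 2, and 3 without sgSCR replicate 2.

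Of 21 tested intracellular partners (25 listed), 7 rose with SA, and in sgALAS1 8 rose and 1 fell, with medians of 0.18 and 0.25. Among all tested genes 4.83% rose with SA, and in sgALAS1 4.88% rose and 6.85% fell. ANXA1, the annexin that binds S100A11, rose by 2.28 with SA (SE 0.34, edgeR adjusted p = 2.16e-05) and 2.06 in sgALAS1 (SE 0.37, adjusted p = 2.01e-04). CYBB, the catalytic subunit of the phagocyte NADPH oxidase to which calprotectin delivers arachidonic acid, rose by 0.77 (SE 0.13) and 0.99 (SE 0.13). CYBB was lower in sgSCR than in vehicle (66.4 against 123 CPM, log2 change -0.89, edgeR adjusted p = 2.05e-04), and its sgALAS1 mean was 132 CPM. NCF4, a cytosolic subunit of the same oxidase, rose by 0.75 (SE 0.12) and 0.80 (SE 0.12).

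Factors known to act at S100A8 and S100A9 moved in both directions. Of 23 tested (25 listed), 5 rose and 3 fell with SA, and 6 rose and 1 fell in sgALAS1, with medians of 0.07 and 0.35. Among all tested genes 4.83% rose and 6.24% fell with SA, and 4.88% rose and 6.85% fell in sgALAS1. The SA count of risers in the list became 3 when SA replicate 1, SA replicate 2 or vehicle replicate 3 was left out. The sgALAS1 count of risers became 4 without sgSCR replicate 2, sgSCR replicate 3, sgALAS1 replicate 1 or sgALAS1 replicate 3. JUN, a subunit of AP-1, rose by 1.61 with SA (SE 0.17, edgeR adjusted p = 9.94e-08) and 1.74 in sgALAS1 (SE 0.18, adjusted p = 2.08e-08), and MYC fell by 1.09 (SE 0.15) and 0.92 (SE 0.15). SPI1, the gene of PU.1, rose by 0.96 with SA (SE 0.16, edgeR adjusted p = 1.33e-04) and had 0.35 in sgALAS1 (adjusted p = 0.174), and the difference did not pass (-0.61, adjusted p = 0.245). IRF8, a factor of the monocyte lineage, rose by 0.80 in sgALAS1 (SE 0.16, edgeR adjusted p = 6.59e-04) and had -0.41 with SA (adjusted p = 0.0972), with a called difference of 1.21 (SE 0.23, adjusted p = 0.00225). IRF7, named after its values were seen, was called in opposite directions. Its log2 change was -1.23 with SA (SE 0.28, edgeR adjusted p = 0.00314) and 1.08 in sgALAS1 (SE 0.30, adjusted p = 0.0144). JUN, FOSL2, FOS and MYC, the other listed factors called in both arms, kept their direction.

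Genes of monocyte and granulocyte maturation, the setting in which S100A8 and S100A9 are usually seen were called in both arms. Of 22 tested (33 listed), 11 rose and 3 fell with SA, and 11 rose and 2 fell in sgALAS1, with medians of 0.71 and 0.68. The shares over all tested genes were 4.83% higher and 6.24% lower with SA, and 4.88% higher and 6.85% lower in sgALAS1. The fallers of the list with SA numbered 1 without vehicle replicate 2 or SA replicate 3. LYZ, lysozyme, rose by 1.37 with SA (SE 0.12, edgeR adjusted p = 1.36e-09) and 1.60 in sgALAS1 (SE 0.12, adjusted p = 1.90e-11). FCER1G, a signalling chain of Fc receptors, rose by 1.18 (SE 0.14) and 1.36 (SE 0.14), and CD163, a hemoglobin scavenger receptor, by 1.75 (SE 0.21) with SA. The summed level of the list was 2110 to 2241 CPM in vehicle, 3534 to 3808 with SA, 1464 to 1524 in sgSCR and 2601 to 2878 in sgALAS1. FCGR3A and the neutrophil granule genes LTF and LCN2 were at 0 in all 4 groups. CD14 is also in the list of receptors, and ANXA1 and CYBB are also among the intracellular partners, so these lists are not separate. The part of the maturation list in the S100 changes was not tested. Between the control groups, 5 genes of the list were lower in sgSCR than in vehicle (median -0.42), LYZ among them (341 against 564 CPM), where S100A8 and S100A9 were uncalled.

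The 7 members all lie on the long arm of chromosome 1. A stretch of other genes there separates S100A10 and S100A11 from the remaining 5. Listed neighbours were measured too. Those that passed the filter all lie outside the stretch from S100A10 to S100A13, so none of them is next to S100A8 or S100A9. S100B, S100G, S100P and S100Z lie on other chromosomes. S100A9 reads forward and S100A8 in reverse, with S100A12 between them, and S100A6 and S100A4 follow farther along. Of 21 tested neighbours (30 listed), 5 rose with SA and 3 in sgALAS1, against 4.83% and 4.88% of all tested genes. The median log2 changes of the neighbours were 0.07 and 0.11. Their log2 changes ran from -0.38 to 0.62 with SA and from -0.20 to 0.65 in sgALAS1, and those of S100A8, S100A9, S100A6 and S100A4 lay outside the range of each arm. S100A11 lay outside it with SA only, and S100A10 and S100A13 lay inside in both arms. CHTOP and SNAPIN, which follow the last S100 genes of the cluster, had -0.05 and 0.07 with SA and 0.07 and -0.04 in sgALAS1. The SA count was 3 without vehicle replicate 1 or SA replicate 1, 2 without vehicle replicate 2, and 1 without vehicle replicate 3 or SA replicate 3, and the sgALAS1 count was 1 without sgSCR replicate 1 or sgALAS1 replicate 3.

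**Figure D5:**
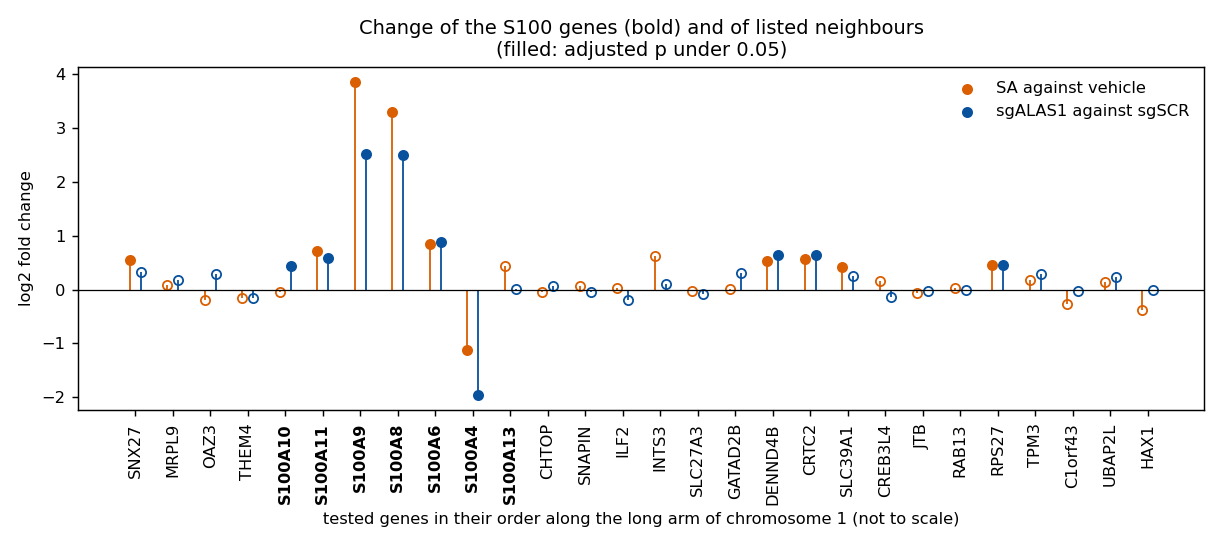
Log2 fold change (y axis) of tested genes in their order along the long arm of chromosome 1 (x axis, not to scale), for SA and for sgALAS1. S100 members are in bold and filled points passed the test. S100A8 and S100A9 rise above the listed neighbours, whose values lie between -0.38 and 0.65. These neighbours all lie outside the stretch from S100A10 to S100A13.

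Other calcium sensors of the EF-hand kind were mostly uncalled. Of 28 tested (31 listed), 1 rose and 4 fell with SA, and 1 rose and 3 fell in sgALAS1, with medians of -0.11 and -0.03. Among all tested genes 4.83% rose and 6.24% fell with SA, and 4.88% rose and 6.85% fell in sgALAS1. NUCB2, a calcium-binding protein of the Golgi, fell by 0.99 with SA (SE 0.11, edgeR adjusted p = 2.67e-07) and had -0.20 in sgALAS1 (adjusted p = 0.268), with a called difference of 0.79 (adjusted p = 0.00396). NCALD, neurocalcin delta, fell by 1.43 with SA (SE 0.29, edgeR adjusted p = 9.12e-04) and went from 420 reads in sgSCR to 2 in sgALAS1, a ratio of 0.00499 (counting interval 6.03e-04 to 0.0181). The 4 falls with SA became 2 without SA replicate 3. The rise with SA was not called without SA replicate 1, SA replicate 3 or vehicle replicate 2, and 2 genes rose without vehicle replicate 1. In sgALAS1, of the 6 fits that leave out a library, a rise was called only in that without sgSCR replicate 3.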

How the data were processed

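Polyadenylated RNA of OCI-AML3 cells was made into QuantSeq 3′ libraries, which were read from a single end, per the labels' protocols. Per the submitters' processing notes, the tools were bcl2fastq 2.17.1.14, cutadapt 1.14, HISAT2 2.0.4 with hg19, and featureCounts of Subread 2.0.0, and edgeR 3.34.0 and limma 3.48.3 are listed too. Not given in the sources used here are the release of the annotation, the strandedness of counting and the treatment of multi-mapped reads. The table deposited by the authors gives an unnormalised count of reads for each Ensembl identifier, and library names in the labels identify its 12 columns. Of 57905 identifiers, 51996 took their name from a current gene table and 342 from GENCODE 29, and 5567 had no name.

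Counts were analysed in R 4.3.3 with edgeR 4.0.16. The filter filterByExpr, applied by group, kept 13832 genes. All 12 libraries entered a single fit by group with TMM normalisation, so the 4 groups shared the estimate of the spread, and edgeR's two-sided quasi-likelihood F-test was applied with Benjamini-Hochberg adjustment across the 13832 genes, with a threshold of 0.05. An SE was obtained from a log2 fold change by dividing its size by the root of the F statistic. Levels are TMM-normalised CPM. Alternatives used DESeq2 1.42.0, limma 3.58.1, other scaling, no filter, a test against a 1.5-fold change, a fit of the 6 libraries compared, a replicate block, and each library left out in turn. The fit was tested on simulated counts. The members, gene lists and tests were chosen with earlier results of these data known. Beside the members and the other S100 genes that could be tested, the rule for named genes takes up to 4 genes per list and arm with the smallest p-values past the threshold, the 5 genes most correlated with S100A9 and with S100A8, and ALAS1. Not every gene that the rule takes is described, and some are not reported here. Promoter windows came from RefSeq (GRCh38.p14) and were matched by symbol. Replicates of a group all differed by more than sampling noise (lowest chi-square per degree of freedom 4.70).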

Additional observations from a re-analysis of the deposited data

Results flagged for a closer look

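The rise of S100A9 differed in size between the arms. The change in sgALAS1 cells minus the change in SA-treated cells was -1.33 on the log2 scale (edgeR's quasi-likelihood test of the difference, Benjamini-Hochberg adjusted p = 0.0127). S100A9 was higher in 3 of 3 treated libraries than in any control library in both arms. The call of the difference was lost with limma-voom, in the test against a 1.5-fold change, and without sgSCR replicate 1 or sgSCR replicate 3. Adjusted p ran from 0.00172 to 0.226 over the 19 alternatives.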

How the results depend on the processing

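S100A8, S100A9 and S100A4 kept their direction and their call in both arms under all 14 alternatives run in each arm. The test against a 1.5-fold change left 249 genes for SA with 3 members, 412 for sgALAS1, 68 for the difference between arms with 0 members, and 13 for sgSCR against vehicle. That test, which asks for more than a 1.5-fold change, no longer called S100A6 for SA or S100A10 for sgALAS1, nor S100A11 in either arm. Without the filter on low counts, 277 genes and 2 members (S100A9 and S100A4) were called in the difference between arms. DESeq2 called 300 genes for sgSCR against vehicle, and limma-voom called 0 members in the difference. With single libraries left out, the counts ran from 954 to 1595 for SA, from 1134 to 1415 for sgALAS1, from 109 to 340 for the difference (0 to 2 members) and from 84 to 276 for sgSCR against vehicle. The cause was not tested.

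Signs reversed only in effects that had not passed the test. The sgALAS1 value of S100A13 was -0.051 with limma-voom and -0.25 to 0.34 with single libraries left out. For sgSCR against vehicle, S100A9 was -0.029 with limma-voom and -0.15 to 0.31 with libraries left out, S100A6 ran from -0.093 to 0.025 and S100A13 from -0.086 to 0.37. The difference between arms ran from -0.041 to 0.091 for S100A6 and from -0.27 to 0.011 for S100A11. For SA, S100A10 ran from -0.11 to 0.0042 and S100PBP from -0.11 to 0.011. The difference in the log2 ratio of S100A9 to S100A8 in the sgALAS1 arm ran from -0.21 to 0.40.

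Residual correlations were -0.0661 to 0.0572 between libraries that share a replicate number and -0.152 to 0.109 between other pairs, so the number is not known to pair them. With a replicate block, 1704 genes were called for SA, 1796 for sgALAS1 and 2 members in the difference between arms, where S100A4 (-0.87, adjusted p = 0.0320) joined S100A9. Leaving out a library lowers the number of samples in the fit. S100A12, S100A2 and S100A1 had too few reads for the test, and the depth limits what can be said of them.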
